A study of Rattus norvegicus with 63 samples.

Results

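rno-miR-144 and rno-miR-451, the paired microRNAs (miRNAs) of red blood cells, were followed across livers of rats given 15 compounds or a vehicle. The members were chosen by name, without the star that marked the other strand of a hairpin in the array's naming, and they were 2 of the 350 rat miRNAs on the array and 2 of the 162 that were detected on at least 1 array and tested. Each of 63 male Wistar Hanover rats (8 to 10 weeks old at assignment) gave 1 liver RNA extract and 1 single-colour Agilent array, in 21 groups of 3 rats dosed daily by gastric gavage. Dose groups held 5 rats, and from each treatment group 3 with liver changes on histopathology had been selected for the arrays. A treated group is thus not a random draw of the animals dosed. No such selection is described for the vehicle groups. The study asked whether short-term liver profiles separate non-genotoxic carcinogens (NGC), genotoxic carcinogens (GC) and non-carcinogens (NC).

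A total of 6 vehicle sets served as controls. Methylcellulose (MC) was given for 14 days to sets 1, 2, 5 and 6, and corn oil (CO) for 7 days to set 3 and for 14 days to set 4. Compared with MC set 1 were Acetamide (AA, 3000 mg/kg/d), Dehydroepiandrosterone (DHEA, 600 mg/kg/d) and Methylcarbamate (Mcarb, 400 mg/kg/d) after 14 days, Methapyrilene HCl (MPy, 60 mg/kg/d) and Thioacetamid (TAA, 19.2 mg/kg/d) after 7 days, and Wy-14643 (Wy, 60 mg/kg/d) after 3 days. Cefuroxime (CFX, 250 mg/kg/d) and Nifedipine (Nif, 3 mg/kg/d), both for 14 days, were compared with MC set 2. Ethionine (ETH, 200 mg/kg/d, 14 days), Diethylstilbestrol (DES, 10 mg/kg/d, 3 days) and Piperonylbutoxide (PBO, 1200 mg/kg/d, 3 days) were compared with MC set 5. Phenobarbital sodium (PB), for which the labels give 14 days and no dose, was compared with MC set 6. The paper's methods do state a dose for it, whereas the paper's overview of compounds lists none. C.I Direct Black (CIDB, 146 mg/kg/d) and Dimethylnitrosamine (DMN, 4 mg/kg/d) were given for 7 days against CO set 3, and Cyproterone acetate (CPA, 100 mg/kg/d) for 14 days against CO set 4. The labels thus set the 3-day and 7-day compounds of MC sets 1 and 5 against rats dosed with vehicle for 14 days. The paper, however, describes its control groups as matched in time, and which of these holds could not be settled. Compounds with the same control set share its 3 rats.

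MiRNAs are short RNAs that guide Argonaute proteins to complementary sites in messenger RNAs. miR-144 and miR-451 are cut from a shared primary transcript that the factor GATA1 switches on in erythroid precursors, and both persist in circulating red cells, in which miR-451 is among the most abundant miRNAs. miR-144 is matured by Dicer, whereas the short hairpin of miR-451 is loaded into Argonaute-2 uncut and sliced there, without Dicer. In adult liver, which no longer makes red cells under normal conditions, both are usually taken as RNA of the blood that stays in the tissue. The rats were bled by cardiac puncture and exsanguinated at necropsy, and no perfusion of the liver is given in the sources used here. In RNA from whole liver, a lower number of red cells and less miRNA per red cell cannot be told apart.

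The mature sequences are shown because their seeds (bases 2 to 8, in capitals) decide which transcripts a miRNA can pair with. They come from RefSeq (rat build GRCr8), with the array's rno-miR-144 read as RefSeq rno-miR-144-3p and rno-miR-451 as rno-miR-451-5p. The nearest seed neighbours of miR-144, miR-101a and miR-101b, are printed with them.
miR-144: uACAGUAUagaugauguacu
miR-451: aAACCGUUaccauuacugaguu
miR-101a: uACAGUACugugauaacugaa
miR-101b: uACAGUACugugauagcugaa

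No other of the 693 mature rat miRNA names in the table had the 7-base seed of miR-144 or that of miR-451. Bases 2 to 7 of miR-144 were shared with miR-101a and miR-101b, which were detected on 63 of 63 arrays. Their deviations from the group means correlated with those of miR-144 at r = -0.11 and r = -0.19.

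The hairpins are shown with the mature strand in capitals, because the position of that strand differs between the members. Both lie on the plus strand of chromosome 10, Mir144 at chr10:63459397-63459479 and Mir451a at chr10:63459569-63459640, with 89 bases between them.
Mir144: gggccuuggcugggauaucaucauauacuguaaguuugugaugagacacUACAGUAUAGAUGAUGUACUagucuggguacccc
Mir451a: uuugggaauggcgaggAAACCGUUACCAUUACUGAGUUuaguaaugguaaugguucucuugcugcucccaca

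In the fold predicted by RNAfold, all 20 bases of mature miR-144 lay on the 3′ side of a terminal loop of 6 bases. Mature miR-451 had 18 of its 22 bases on the 5′ side of a terminal loop of 4 bases and the other 4 in the loop itself. The mature strand of miR-451 thus ran into the loop, whereas that of miR-144 kept clear of it.

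Values are given as log2 level, from spot brightness without background subtraction after quantile normalisation, so that fold changes of dim miRNAs are compressed. Both members were detected, and well above background, on 63 of 63 arrays. Each was read by 2 probes with 10 spots per probe. The mean brightness of the miR-451 probes ranged over arrays from 494.4 to 2294 units for the brighter and from 269.2 to 1036 for the dimmer. Those of miR-144 were dimmer, at 148 to 600.2 and 89.7 to 320.1 units, and the dimmer of these was well above background on 44 arrays. Deviations from the group means correlated between the probes of a member at r = 0.94 for miR-144 and r = 0.97 for miR-451. The within-group SD of the dim miR-144 probe was 0.11, against 0.27 for the other, so the averaged miR-144 value varied less than its brighter probe.

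Arrays were scanned on 3 days (30, 28 and 5 arrays), with a median brightness of 193.5 to 243.5, 140 to 153.5 and 75 to 78 units respectively. Quantile normalisation gives every array the same distribution, so this order was largely removed before levels were compared. The medians that follow are therefore no test of a scan-day effect. The median log2 level of miR-451 was 9.60 on the first scan day and 9.59 on the second, and that of miR-144 was 8.09 on both. The 5 arrays of the third day, from 5 groups, had medians of 10.06 and 8.25. Of the 15 comparisons of compound and control set, 5 lay within 1 scan day, 7 shared a day in part, and DES, TAA and Wy shared none with their control set, so that for these scan day and treatment cannot be told apart. In the deposited value table, 15 of 63 columns followed the arrays of another group more closely than their own: the DES and DHEA columns followed each other's arrays, and the columns of MC sets 1, 5 and 2 followed the arrays of sets 5, 2 and 1. Which side carries the right labels could not be settled, and 11 of the 15 comparisons (AA, DHEA, Mcarb, MPy, TAA, Wy, CFX, Nif, DES, ETH and PBO) use one of these groups. The results below use the array files with their own labels. Values with the table's assignment are given for DES and DHEA, and in the closing section where a sign turned.

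Across the 63 rats, miR-451 and miR-144 rose and fell together. The log2 level of miR-451 ran from 8.70 to 11 with a median of 9.63, a 4.94-fold range, and that of miR-144 from 7.67 to 8.92 with a median of 8.11, a 2.37-fold range. Their levels correlated at r = 0.92 (Spearman rho = 0.91, n = 63). After the group means were removed, r was 0.93 and rho 0.94, so the relation was as strong between rats that had received the same dose of the same compound. The permutation p was 1e-05 for each of the 6 relations computed, also after Benjamini-Hochberg adjustment, which is the smallest p that 100000 permutations can give.

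The same relation was found in each subset of rats. It was 0.88 in the 18 control rats (rho = 0.88) and 0.93 in the 45 treated rats (rho = 0.92), and within scan days it was 0.90 (n = 30, rho = 0.89) and 0.91 (n = 28, rho = 0.89). The third day held too few arrays. Without the 2 rats farthest from the median of miR-451, r was 0.90 for levels, 0.92 for deviations, 0.86 in control rats, 0.91 in treated rats, and 0.88 and 0.94 in the scan days. In 58 of 63 rats the deviations of both members had the same sign. The same rat was highest in both members in 21 of 21 groups and lowest in both in 18 of 21. Both values of a rat come from the same array and RNA extract.

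**Figure D1:**
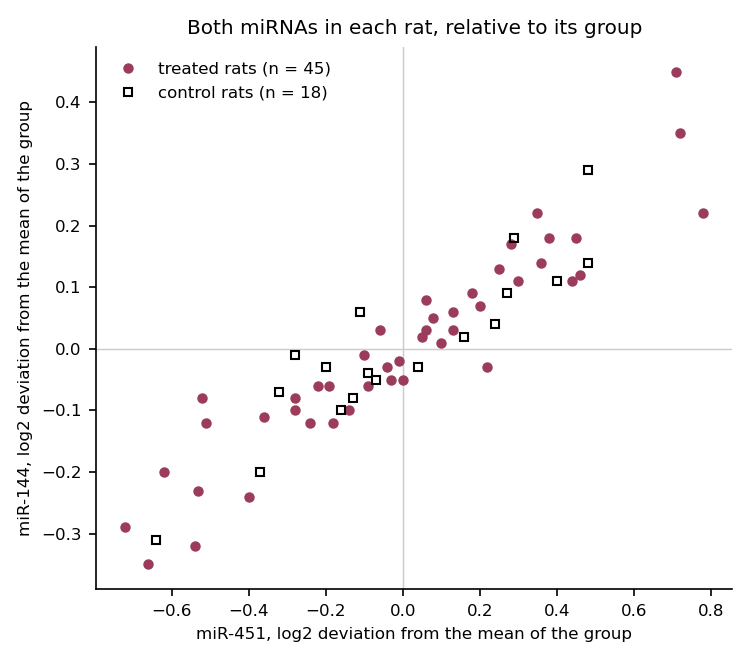
Log2 deviation of miR-144 (vertical axis) and miR-451 (horizontal axis) from the mean of the rat's own group, 1 point per rat (filled circles, 45 treated rats; open squares, 18 control rats). The points lie along a line through 0 (r = 0.93), and 58 of 63 rats have both deviations on the same side of 0.

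No other miRNA came near this likeness. Among the 70 other miRNAs detected on all arrays, the deviations of miR-144 were most like those of miR-451 (0.93), miR-99a (0.37), miR-125b-5p (0.31), miR-122 (0.21) and miR-142-3p (0.21). For miR-451 they were miR-144 (0.93), miR-99a (0.35), miR-125b-5p (0.31), miR-122 (0.27) and miR-199a-3p (0.24). On levels, the miRNAs next to the partner were the same for both members in a different order: miR-122 (0.42 with miR-144, 0.40 with miR-451), miR-22 (0.41 and 0.31), miR-26a (0.36 and 0.26) and miR-125b-5p (0.33 and 0.27). At the other end, miR-107 had r = -0.49 and -0.52 with the deviations of miR-144 and miR-451. These coefficients are over 63 rats, share the normalisation of each array, and are given as a description.

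miRNAs that other cells also express did not track the pair. In a list of miRNAs that are abundant in red cells but not specific to them, miR-486, miR-144* and, from the leukocyte list, miR-155 were not on the array. The 4 measured members of the red cell list (miR-16, miR-92a, miR-25, miR-185) had r of -0.08 to 0.34 with the deviations of miR-451, and miR-185, which gave the 0.34, was detected on only 11 arrays. For 5 leukocyte miRNAs (among them miR-223 and miR-142-3p, of neutrophils and all blood cell lineages) r was -0.22 to 0.14, and for 3 hepatocyte miRNAs (miR-122, miR-192, miR-194) it was -0.07 to 0.27. It was -0.27 to -0.17 for 2 endothelial, -0.27 to 0.22 for 3 bile duct and -0.16 to 0.36 for 4 stellate cell and fibroblast miRNAs. Over all 69 other miRNAs detected on all arrays, r with miR-451 ran from -0.52 to 0.35. The label of a blood measure thus rests on the pair itself, since the array held no further miRNA specific to red cells.

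In the levels reported here, rats of the same group differed more in miR-451 than in any other miRNA detected on all arrays. Its SD within groups was 0.43, first of 71, and that of miR-144 was 0.19, rank 3, against a median of 0.08 over the 71. Between them stood miR-494 with 0.30, whose deviations were unrelated to either member (r = 0.04 with miR-144 and 0.00 with miR-451). An SD of 0.43 is a 1.35-fold difference for miR-451, and 0.19 is 1.14-fold for miR-144. The spread was present without treatment, at 0.38 in control and 0.45 in treated groups for miR-451 and at 0.16 and 0.20 for miR-144. The means of the 21 groups had an SD of 0.27 for miR-451 and 0.16 for miR-144.

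**Figure D2:**
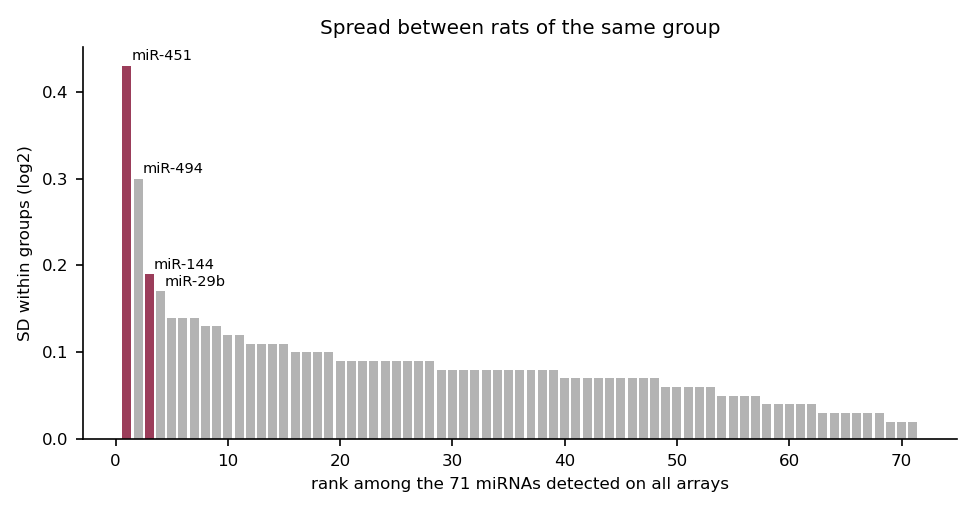
SD between rats of the same group on the log2 scale (vertical axis) for each of the 71 miRNAs detected on all arrays, ranked (horizontal axis). miR-451 (0.43) is first and miR-144 (0.19) ranks 3, in dark red, with miR-494 (0.30) between them and a median of 0.08 over all.

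With the processed signal, from which the scanner software had subtracted background, the spread of both grew. Its SD was 0.58 for miR-451 and 0.54 for miR-144, ranks 2 and 3 behind miR-494 (0.67). In the deposited value table the SDs were 0.58 and 0.55, at the same ranks. The slope of miR-144 on miR-451 was 0.41 in the levels reported here, 0.52 with a model-based background correction, 0.85 with the processed signal and 0.91 in the value table. The correlation of deviations stayed at 0.91 to 0.95 in these settings. The model-based correction changed only the background step, whereas the processed signal changed background and scaling together. By the methods the value table also left out background correction, yet its SDs and slope were close to those of the processed signal. The cause of the difference in slope was not tested.

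The 4 rats highest and the 4 lowest in miR-451 relative to their group show how large this variation was. TAA rats 1 and 2 had miR-451 at 10.20 and 8.76 and miR-144 at 8.37 and 7.73, the widest gap within a group for miR-451, 1.44. MPy rat 1 stood 0.78 above its group mean in miR-451 and 0.22 in miR-144, and PBO rat 3, the highest rat of the study in both, stood 0.71 and 0.45 above. Mcarb rat 3 (-0.66 and -0.35) and DMN rat 2 (-0.62 and -0.20) stood below. Control rats stood apart too, and MC set 6 held rat 1 at -0.64 and -0.31 and rat 2 at 0.48 and 0.29. In these 8 rats, the deviation of miR-122 was between -0.07 and 0.01 and that of miR-223 between -0.01 and 0.08. That of miR-142-3p was between -0.16 and 0.23 and that of miR-16, of the red cell list, between -0.08 and 0.24. The SDs of these miRNAs within groups were 0.04, 0.06, 0.14 and 0.12 respectively.

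Control rats set the background for the compounds. In the 18 of them miR-451 ran from 9.19 to 10.32 (median 9.61) and miR-144 from 7.92 to 8.56 (median 8.10). No difference between the sets passed the test: over the 7 pairs of sets with the same vehicle, differences ran from -0.21 to 0.11 for miR-451 and from -0.17 to 0.06 for miR-144, and neither member was called (limma, Benjamini-Hochberg adjusted p under 0.05) in any. In 4 of the pairs 0% of the 162 miRNAs were called, but MC set 6 differed from MC sets 1, 2 and 5 in 20.4%, 6.79% and 9.26%. MC set 6 was scanned on the first day and the other MC sets on the other days, so set and scan day cannot be told apart. The pair was not among the miRNAs that differed there.

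Neither miR-144 nor miR-451 was called in any of the 15 compounds. The SE of a fold change was 0.15 for miR-144 and 0.35 for miR-451 on the log2 scale, with 42 residual degrees of freedom. At an unadjusted p under 0.05 limma had miR-144 in 2 compounds, CIDB and PBO, where 34.6% and 27.2% of all miRNAs passed that mark (0.617% to 45.7% over the 15 compounds), and miR-451 in none. The 3 treated rats lay outside the range of their 3 controls only for miR-144 in CIDB, DES and DHEA, below it each time. In these comparisons 31.5%, 54.3% and 35.2% of all 162 miRNAs did not overlap, and over the 15 compounds 9.88% to 54.3%. Such shares do not set miR-144 apart. The plots of levels by group and of fold changes show the values taken up in turn.

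**Figure D3:**
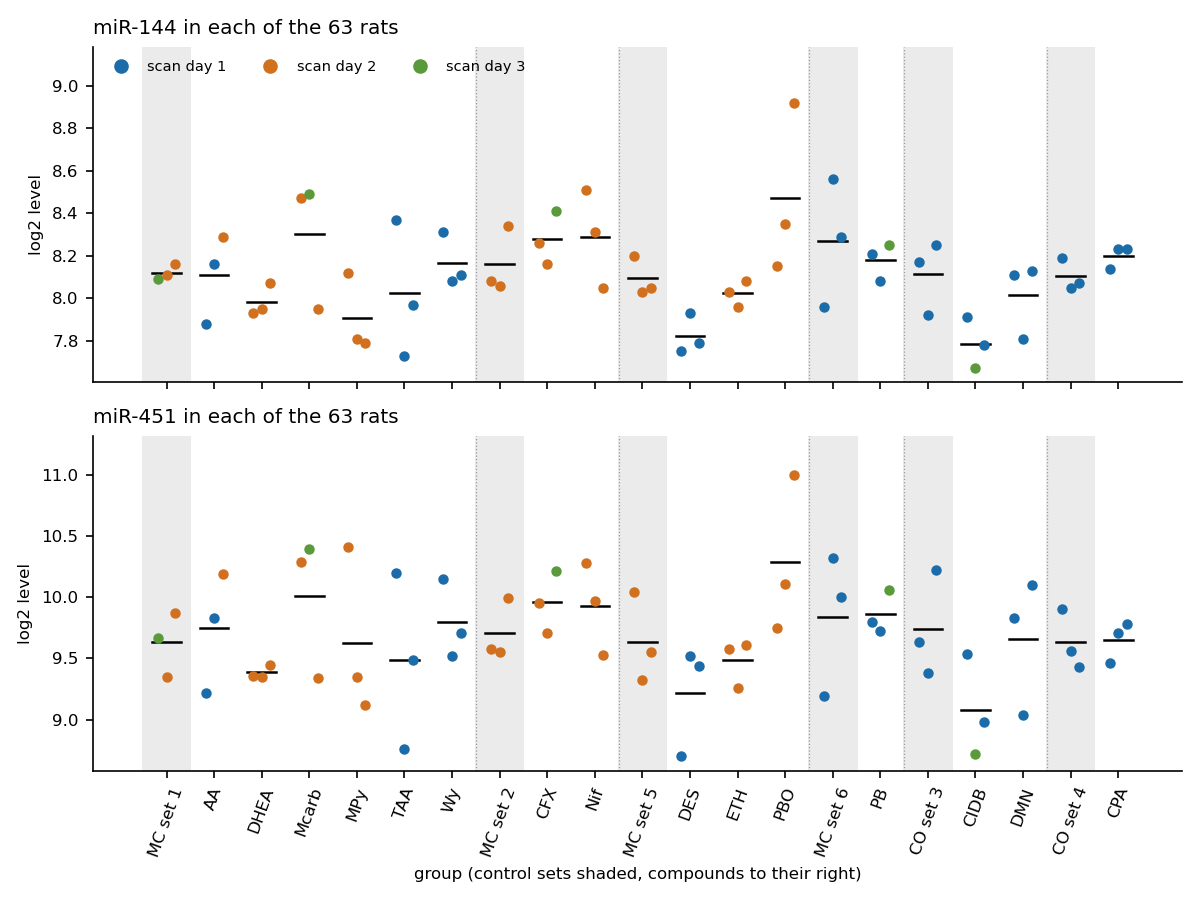
Log2 level (vertical axes) of miR-144 (upper panel) and miR-451 (lower panel) in each of the 63 rats, by group (horizontal axis). Each point is 1 rat, coloured by scan day, bars are group means, control sets are shaded and the compounds compared with a set stand to its right. PBO has the highest and CIDB the lowest mean in both panels. The ranges of neighbouring groups in the order of means overlap, which that ordering itself favours.

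**Figure D4:**
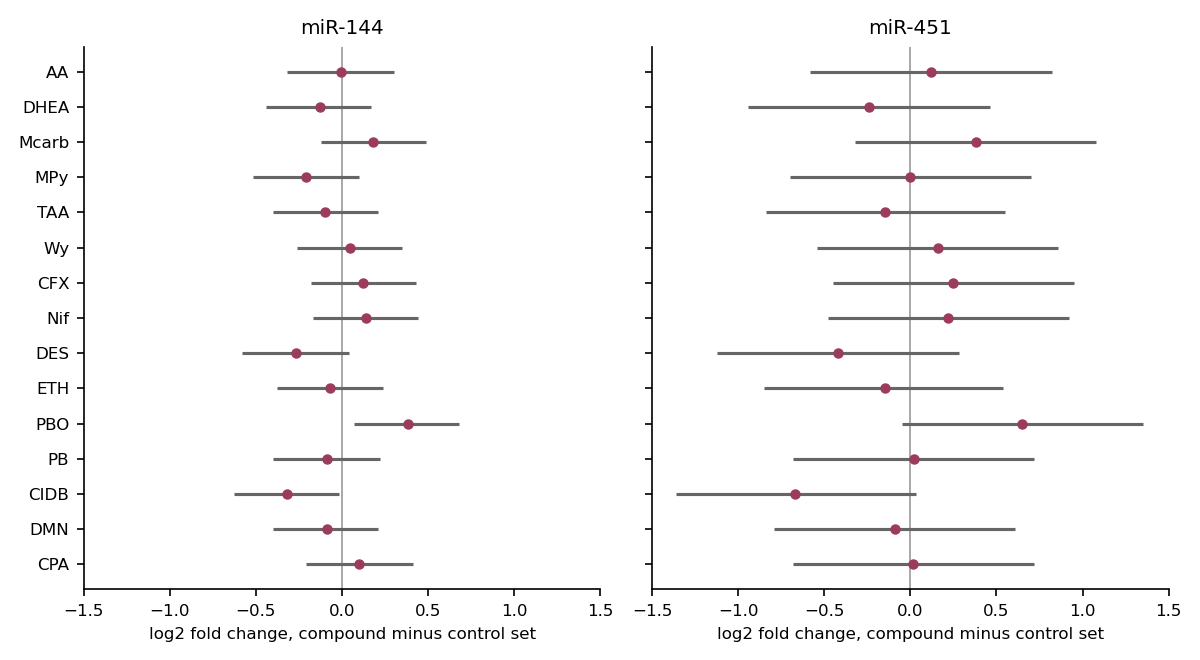
Log2 fold change of each of the 15 compounds against its control set (horizontal axes), for miR-144 (left) and miR-451 (right), with 95% confidence intervals from limma. The intervals of miR-144 in CIDB and PBO leave out 0, and those of miR-451 all hold it.

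Piperonylbutoxide, an insecticide synergist, gave the highest levels of both. miR-451 was 9.75, 10.11 and 11 in the PBO rats and 10.04, 9.32 and 9.55 in MC set 5. miR-144 was 8.15, 8.35 and 8.92 against 8.20, 8.03 and 8.05. In both, PBO rats 2 and 3 lay above all controls and rat 1 lay within their range. The log2 fold change was 0.65 for miR-451 (95% interval -0.05 to 1.35, limma adjusted p = 0.223) and 0.38 for miR-144 (0.07 to 0.68, adjusted p = 0.111), in a comparison within 1 scan day where 8.64% of miRNAs were called. miR-144 passed without PBO rat 1 (0.54, adjusted p = 0.0230, with 9.88% called), and against all 12 MC rats (0.31, adjusted p = 0.0486, with 26.5% called). Without the highest rat or any other single rat of the comparison, the fold change of miR-144 ran from 0.15 to 0.54 and that of miR-451 from 0.29 to 0.92, the low ends being those without PBO rat 3. In PBO livers 2 of 3 bile duct miRNAs were called higher (miR-200b by 0.69, limma adjusted p = 5.2e-07) and 1 of 3 hepatocyte miRNAs lower. None of 4 of the red cell list and none of 5 leukocyte miRNAs was called. Their part in the values of the pair was not tested.

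C.I Direct Black, an azo dye of the benzidine family, gave the lowest levels. miR-451 was 9.54, 8.72 and 8.98 in the CIDB rats and 9.63, 9.38 and 10.22 in CO set 3, with 2 of 3 rats below all controls. miR-144 was 7.91, 7.67 and 7.78 against 8.17, 7.92 and 8.25, with no overlap. The fold change of miR-451 was -0.67 (-1.36 to 0.03, adjusted p = 0.158) and that of miR-144 was -0.32 (-0.63 to -0.02, adjusted p = 0.124), and 20.4% of miRNAs were called. CIDB rat 2 was scanned on the third day, and with the 2 rats of the first day alone, on which the controls were scanned, the differences were -0.49 and -0.27. In the deposited value table the difference of miR-144 was larger, -1.21 (adjusted p = 0.0296, with 33.3% of 135 miRNAs called), and with the processed signal it was -0.89 (adjusted p = 0.0977). Hepatocyte miRNAs moved in these livers too, miR-122 by -0.33 and miR-192 by -0.50 (2 of 3 called lower), as did 1 of 5 leukocyte miRNAs (miR-223, -0.15). Called higher were 2 of 3 bile duct miRNAs (miR-200b by 0.31, miR-200a by 0.15) and 1 of 4 of the red cell list (miR-25, 0.17). Their part in the values of the pair was not tested.

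Diethylstilbestrol, a synthetic oestrogen, came next from below. miR-144 was 7.75, 7.93 and 7.79 in the DES rats against 8.20, 8.03 and 8.05 in MC set 5, with no overlap. miR-451 was 8.70, 9.52 and 9.44, of which 1 rat lay below all controls. The fold changes were -0.27 for miR-144 (-0.58 to 0.04, adjusted p = 0.158) and -0.42 for miR-451 (-1.12 to 0.28, adjusted p = 0.345), with 37.0% of miRNAs called. The call for miR-144 turned on the setting. With the processed signal the 3 rats stood at 4.76, 5.78 and 4.73 on a log2 scale and the controls at 6.88, 6.30 and 6.23, a difference of -1.38 (adjusted p = 0.0115, with 40.1% called), and scaling by all probes gave -1.39 (adjusted p = 0.0133, with 28.4% called). These values weigh both miR-144 probes equally. The processed signal of the dimmer probe ran from 8.219 to 106 units over arrays, and it was well above background on only 44 of them. Its part in the difference was not tested. miR-144 was also called against all 12 MC rats (-0.34, adjusted p = 0.0215, with 45.1% called) and in a fit of the groups compared alone (-0.27, adjusted p = 0.0318, with 36.4% called). miR-451 was called in none of these settings, and its fold change ran from -0.58 to -0.16 when single rats were left out (-0.16 without DES rat 1). Of the leukocyte miRNAs 2 of 5 were called lower in DES (miR-142-3p by -0.52), as was 1 of 2 endothelial miRNAs (miR-126*, -0.09). Called higher were 2 of 4 of the red cell list (miR-25 by 0.13, miR-185 by 0.03) and 1 of 3 hepatocyte miRNAs (miR-192, 0.26). Their part in the values of the pair was not tested. DES and its controls shared no scan day.

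Dehydroepiandrosterone, an adrenal steroid and peroxisome proliferator in rodents, had miR-144 at 7.93, 7.95 and 8.07 against 8.09, 8.11 and 8.16 in MC set 1. The groups did not overlap, yet the gap was narrow. miR-451 was 9.36, 9.35 and 9.45 against 9.67, 9.35 and 9.87. The fold changes were -0.13 (adjusted p = 0.581) and -0.24 (adjusted p = 0.660), with 18.5% of miRNAs called, and -0.15 and -0.22 within the second scan day. Called lower was 1 of 3 hepatocyte miRNAs (miR-192 by -0.36), whose part in the values of the pair was not tested. In the value table the column named DHEA had miR-144 at -1.05 (adjusted p = 0.0474, with 41.5% called), but those columns followed the arrays filed as DES. With the arrays assigned as in the table, the levels reported here gave -0.27 for DHEA and -0.17 for DES, neither called. That assignment gives DHEA the arrays filed as DES and MC set 1 those filed as MC set 5. Its -0.27 is therefore the DES comparison above under another name, equal by construction. The 2 assignments thus share these 3 arrays and their controls, and which compound the low miR-144 belongs to could not be settled.

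**Figure D5:**
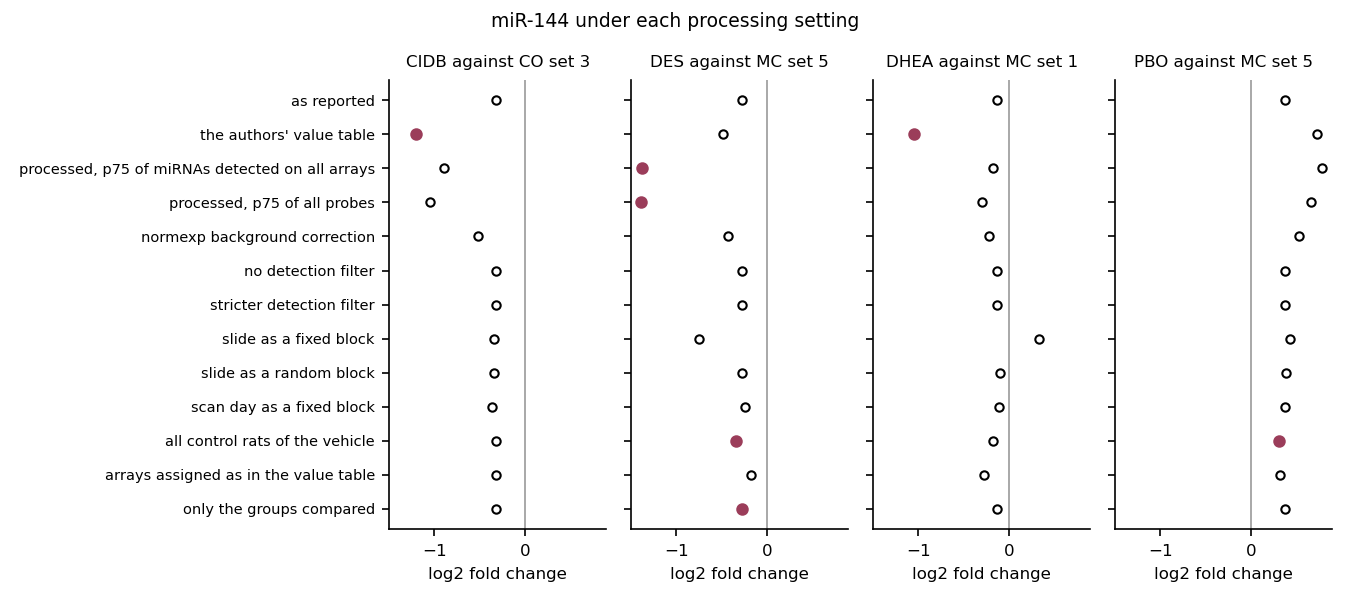
Log2 fold change of miR-144 (horizontal axes) in CIDB, DES, DHEA and PBO against their control sets under each processing setting (vertical axis). Filled points had a limma adjusted p under 0.05. In DES the value is -0.27 as reported and -1.38 with the processed signal. CIDB, DES and PBO keep their sign in every setting drawn, and DHEA turns with slide as a fixed block (0.33).

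In the other compounds compared with MC set 1 neither member was called, and all intervals held 0. Mcarb had miR-451 at 10.29, 10.39 and 9.34 and miR-144 at 8.47, 8.49 and 7.95, with 2 rats above and 1 below all controls in both, for fold changes of 0.38 (-0.32 to 1.08, adjusted p = 0.574) and 0.18 (-0.12 to 0.49, adjusted p = 0.533) where 1.85% of miRNAs were called. Within scan days these were 0.21 and 0.08 on the second and 0.72 and 0.39 on the third, with 1 rat a side. Without single rats the fold change of miR-451 ran from 0.19 (without Mcarb rat 2) to 0.71 (without rat 3). The mean thus hid rats on both sides of the controls.

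AA had miR-451 at 9.22, 9.83 and 10.19 and miR-144 at 7.88, 8.16 and 8.29, for fold changes of 0.12 (-0.58 to 0.82, adjusted p = 0.873) and -0.0086 (-0.32 to 0.30, adjusted p = 0.986), with 13.6% called. AA rat 3 alone shared a scan day with controls and stood 0.58 and 0.16 above them. Called higher in AA were 1 of 4 of the red cell list (miR-16 by 0.41) and 1 of 4 stellate cell and fibroblast miRNAs (miR-143 by 0.18). In MPy, miR-451 was 10.41, 9.35 and 9.12 and miR-144 8.12, 7.81 and 7.79. The fold changes were -0.0021 (-0.70 to 0.70, adjusted p = 0.995) and -0.21 (-0.52 to 0.10, adjusted p = 0.356), with 18.5% called, and 0.02 and -0.23 within the second scan day. MPy rat 1 lay above all controls in miR-451 but within their range in miR-144. In MPy 2 of 4 of the red cell list were called higher (miR-16 by 0.32, miR-25 by 0.12) and 1 of 3 hepatocyte miRNAs lower (miR-194 by -0.32). The part of these miRNAs in the values of the pair was not tested.

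TAA had miR-451 at 10.20, 8.76 and 9.49 and miR-144 at 8.37, 7.73 and 7.97, for -0.15 (-0.84 to 0.55, adjusted p = 0.807) and -0.10 (-0.40 to 0.21, adjusted p = 0.715), with 21.6% called. Wy had 10.15, 9.52 and 9.71 and 8.31, 8.08 and 8.11, for 0.16 (-0.54 to 0.86, adjusted p = 0.749) and 0.05 (-0.26 to 0.35, adjusted p = 0.814), with 25.9% called. In both compounds the differences of the pair were smaller than its SD within groups. Of the red cell list 1 of 4 was called higher in Wy (miR-25 by 0.09) and none in TAA. Among stellate cell and fibroblast miRNAs 1 of 4 was called lower in each (miR-143 by -0.22 in Wy and -0.19 in TAA).

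Of the non-carcinogens, CFX, a cephalosporin antibiotic, had miR-451 at 9.95, 9.71 and 10.21 and miR-144 at 8.26, 8.16 and 8.41. MC set 2 had 9.58, 9.55 and 9.99 and 8.08, 8.06 and 8.34. The fold changes were 0.25 (-0.45 to 0.95, adjusted p = 0.987) and 0.12 (-0.18 to 0.43, adjusted p = 0.987), and 0.12 and 0.06 within the second scan day. Nif, a calcium channel blocker, had 10.28, 9.97 and 9.53 and 8.51, 8.31 and 8.05, for 0.22 (-0.48 to 0.92, adjusted p = 0.900) and 0.14 (-0.17 to 0.44, adjusted p = 0.900). Without Nif rat 1 these were 0.04 and 0.03. In both compounds 0% of the 162 miRNAs were called, and the pair stood above its control mean by less than its SD within groups.

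ETH had miR-451 at 9.58, 9.26 and 9.61 and miR-144 at 8.03, 7.96 and 8.08, for -0.15 (-0.85 to 0.54, adjusted p = 0.930) and -0.07 (-0.38 to 0.24, adjusted p = 0.928) against MC set 5, with 16% called. Called lower in ETH were 2 of 3 hepatocyte miRNAs (miR-192 by -0.66, miR-194 by -0.55). Called higher were 3 of 5 leukocyte miRNAs (miR-142-3p by 0.32, miR-146a by 0.23, miR-142-5p by 0.09) and 1 of 4 stellate cell and fibroblast miRNAs (miR-143 by 0.19). PB had 9.80, 9.72 and 10.06 and 8.21, 8.08 and 8.25, against 9.19, 10.32 and 10.00 and 7.96, 8.56 and 8.29 in MC set 6. The PB rats lay within the range of their controls in both members, with 0.02 (-0.68 to 0.72, adjusted p = 0.974) and -0.09 (-0.40 to 0.22, adjusted p = 0.798), and -0.08 and -0.12 within the first scan day. In PB 3.09% of miRNAs were called, among them 2 of 3 bile duct miRNAs, both higher (miR-200b by 0.48, miR-200a by 0.23). The part of these miRNAs of ETH and PB in the values of the pair was not tested.

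DMN, the second genotoxic carcinogen, had miR-451 at 9.83, 9.04 and 10.10 and miR-144 at 8.11, 7.81 and 8.13, for -0.09 in both (-0.79 to 0.61, adjusted p = 0.927, and -0.40 to 0.21, adjusted p = 0.743). This was a comparison within 1 scan day in which 23.5% of miRNAs were called, among them 4 of 5 leukocyte miRNAs, all higher (miR-142-3p by 0.76, miR-146a by 0.49, miR-223 by 0.40). Of the red cell list 2 of 4 were called higher (miR-16 by 0.29, miR-25 by 0.10). Called lower were 3 of 4 stellate cell and fibroblast miRNAs (miR-143 by -0.33), 1 of 3 hepatocyte and 1 of 2 endothelial miRNAs. Their part in the values of the pair was not tested. CPA had 9.46, 9.71 and 9.78 and 8.14, 8.23 and 8.23, against 9.90, 9.56 and 9.43 and 8.19, 8.05 and 8.07 in CO set 4. Its fold changes were 0.02 (-0.68 to 0.72, adjusted p = 0.987) and 0.10 (-0.21 to 0.41, adjusted p = 0.900), with 5.56% called.

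Ordered by mean, miR-451 ran from PBO (10.29 ± 0.64, SD, n = 3) through Mcarb (10.01 ± 0.58) and CFX (9.96 ± 0.25) down to DHEA (9.39 ± 0.06), DES (9.22 ± 0.46) and CIDB (9.08 ± 0.42). miR-144 had PBO (8.47 ± 0.40), Mcarb (8.30 ± 0.30) and Nif (8.29 ± 0.23) at the top and MPy (7.91 ± 0.19), DES (7.82 ± 0.10) and CIDB (7.79 ± 0.12) at the bottom. PBO and Mcarb led, and DES and CIDB closed, both orders. The ranges of rats overlapped in 20 of 20 pairs of neighbours in each order. Sorting by mean puts the closest groups side by side, so this overlap is no test of whether groups differ. Of all 210 pairs of groups, 19 did not overlap in miR-451 and 47 in miR-144. The share over all miRNAs was not computed for these pairs, so the counts do not show that the groups separated.

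No class difference passed the test in the levels reported here. The mean fold change of miR-144 was -0.03 over the 8 NGC, -0.21 over the 2 GC and 0.13 over the 2 NC, and that of miR-451 was 0.04, -0.38 and 0.23. For carcinogens (NGC and GC) against NC the difference was -0.19 for miR-144 (two-sided exact permutation p = 0.273) and -0.27 for miR-451 (p = 0.333, exact permutation). These sizes moved with the setting: for miR-144 the difference was -0.76 in the value table, -0.50 with the processed signal and -1.01 when that was scaled by all probes (p = 0.0758, exact permutation), and for miR-451 it was -0.83 with the last of these (p = 0.0455, exact permutation, before adjustment over the 6 tests). NGC and GC differed by 0.18 (p = 0.289, exact permutation) and 0.42 (p = 0.178), and NGC and NC by -0.16 (p = 0.378, exact permutation) and -0.19 (p = 0.489). Adjusted over these 6 tests, the p-values were 0.453 to 0.489. The smallest p these designs allow was 0.0152 for the first contrast and 0.0222 for the others. limma on the same values called 0% of the 162 miRNAs in each of the 3 contrasts.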

How the data were processed

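Single-colour Agilent miRNA arrays of liver RNA from 63 rats were used. Per the file headers, the deposited intensity values (mean and processed signal per spot) come from Feature Extraction 10.7.3.1; no reference genome entered them. The authors' table holds normalized log2 values of 135 miRNAs; per the methods they were made with the RMA variant of the AgiMicroRna package, leaving out its background correction, and oligos unexpressed in all samples were dropped. The table's centring and the source of its column assignment are not given in the sources used here. It served as an alternative. The levels reported here, also made without background subtraction, did not reproduce it. For miR-144 in CIDB the difference was -0.32 in these levels and -1.21 in the table.

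From mean intensity without background subtraction, control and outlier spots (2.87% of spots) were dropped, and quantile normalisation, log2 and median polish gave 1 value per miRNA. miRNAs detected on at least 1 array (162 of 350) were tested with limma 3.58.1 (R 4.3.3) across all 63 arrays in 21 groups, with Benjamini-Hochberg adjustment within each comparison. A miRNA was called at an adjusted p under 0.05. The number of arrays, 3 per group, limits the precision. The script was tested on simulated data. Group and control set were taken from the labels. Correlations over rats had permutation tests (100000 permutations), and classes exact two-sided permutation over compounds. Hairpins were folded with RNAfold 2.7.2. The software marked 22 arrays, all of the first scan day, for evaluation; they were kept. Alternatives were the value table, the processed signal scaled to its 75th percentile, normexp with an offset of 50, other filters, slide and scan day as blocks, other controls, the table's assignment and leaving out each rat.

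Replicate numbers are shared by PB with MC set 6 and by CPA with CO set 4. The deviations of same-numbered rats correlated at -0.26 to 0.05 and at -0.23 to -0.16, so the numbers were not taken to pair rats. Members and lists were chosen with earlier results of these data known. The miRNAs named beside the members were the marker lists and, per member, the 5 most alike in level and in deviation; miR-101a, miR-101b, miR-494 and miR-107 were named after values were seen.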

Additional observations from a re-analysis of the deposited data

How the results depend on the processing

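With 3 rats a group, the SE of a fold change (0.15 for miR-144 and 0.35 for miR-451) limits what could be seen, as do the dim spots of miR-144. The correlation of the members kept its sign and passed in every alternative in which it was tested (0.88 to 0.92 for levels), and miR-451 was called in 0 of 15 compounds in all of them. miR-144 was called in 2 compounds in the value table (CIDB -1.21, the DHEA column -1.05), in 2 against all control rats of the vehicle (DES -0.34, PBO 0.31), in 1 in a fit of the groups compared (DES -0.27), and in 1 with the processed signal (DES -1.38, or -1.39 when scaled by all probes). The cause of these differences was not tested. Outside the omission of single rats, 507 fold changes, differences and correlations kept their direction and their side of the threshold, 53 turned sign and 8 passed anew. The 8 were the 7 calls just named and carcinogens against NC in miR-451 with scaling by all probes (-0.83, exact permutation p = 0.0455, before adjustment over the 6 tests). The detection filters and the fit of the groups compared cannot move a fold change, so its direction was fixed there. The table's assignment likewise leaves CIDB, CPA, DMN and PB unchanged. The 507 is thus no measure of robustness.

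All values that turned sign were uncalled differences, given here on the log2 scale. In the value table they were AA (0.027) and MC sets 1 and 5 (-0.18) and 2 and 5 (-0.03) for miR-144 and sets 2 and 5 (-0.05) for miR-451. With the processed signal they were AA (0.18), TAA (0.003) and sets 1 and 5 (-0.08) for miR-144 and MPy (0.10) for miR-451. Scaled by all probes they were Wy (-0.16) and sets 1 and 2 (0.08) for miR-144, and AA (-0.21), CPA (-0.047), Wy (-0.22) and sets 1 and 2 (0.12) and 1 and 5 (0.21) for miR-451. With slide as a fixed block, which leaves few rats to compare within slides, miR-144 turned in AA (0.48), DHEA (0.33), MPy (0.09), Nif (-0.10), PB (0.22), TAA (0.48), MC sets 1 and 5 (-0.38), 1 and 6 (0.06), 2 and 5 (-0.12), 2 and 6 (0.33) and 5 and 6 (0.45), CO sets 3 and 4 (-0.20), carcinogens against NC (0.06) and NGC against NC (0.14). There miR-451 turned in DHEA (0.89), MPy (0.53), Nif (-0.10), TAA (1.05), MC sets 1 and 6 (0.65), 2 and 5 (-0.53), 2 and 6 (1.06) and 5 and 6 (1.59), CO sets 3 and 4 (-0.44), and both class contrasts (0.12 and 0.33). With slide as a random block these were AA (0.027) and MC sets 1 and 5 (-0.0009) for miR-144 and sets 2 and 6 (0.0057) for miR-451, and with scan day as a block AA (0.032) for miR-144 and MPy (0.041) and PB (-0.04) for miR-451. Against all control rats they were PB (0.02) for miR-144 and CPA (-0.04) for miR-451. With the table's assignment they were AA (0.016) and MC sets 1 and 5 (-0.06) and 2 and 5 (-0.037) for miR-144, and sets 1 and 2 (0.0096) and 2 and 5 (-0.08) for miR-451.

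Leaving out each rat in turn gave, where a sign or call changed, these ranges. For miR-144 they were -0.10 to 0.11 (AA), -0.19 to 0.0085 (DMN), -0.24 to 0.06 (PB), 0.15 to 0.54 (PBO, called without rat 1), -0.27 to 0.05 (TAA) and -0.025 to 0.09 (Wy). For miR-451 they were -0.11 to 0.38 (AA), -0.08 to 0.15 (CPA), -0.31 to 0.22 (DMN), -0.31 to 0.048 (ETH), -0.39 to 0.25 (MPy), -0.30 to 0.26 (PB), -0.50 to 0.22 (TAA) and -0.019 to 0.30 (Wy). Between control sets miR-144 ran from -0.09 to 0.05 (MC 1 and 2), -0.0084 to 0.08 (1 and 5), -0.028 to 0.11 (2 and 5), -0.27 to 0.034 (2 and 6) and -0.05 to 0.11 (CO 3 and 4). miR-451 ran from -0.20 to 0.07 (1 and 2), -0.17 to 0.19 (1 and 5), -0.53 to 0.034 (1 and 6), -0.09 to 0.27 (2 and 5), -0.45 to 0.11 (2 and 6), -0.52 to 0.044 (5 and 6) and -0.12 to 0.30 (CO 3 and 4).

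With the replicate number as a replicate block, miR-144 was -0.09 in PB and 0.10 in CPA and miR-451 was 0.02 in both, none of them called; of the 162 miRNAs, PB then had 6 called in place of 5, and CPA 8 in place of 9. Of the 3 PB rats 1 correlated best with its own number, and of the CPA rats 0.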
